A study of Mus musculus with 2 samples.

Results

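Transcripts of 10 lysine demethylase (Kdm) genes of the Jumonji C (JmjC) family were compared between compressed and control cells. The members were chosen by symbol from the 44792 rows of the count table: Kdm2a, Kdm2b, Kdm3a, Kdm3b, Kdm4a, Kdm4b, Kdm4c, Kdm5b, Kdm6b and Kdm8. The choice was made with their ratios known, so their values are a description and carry no test. The cells were wild type OCCM-30, a mouse cell line that was immortalized and resembles cementoblasts, the makers of the cementum of tooth roots. The first library was made from cells under compressive force and the second from control cells, and no treatment beyond the force is named for either. The line is a single immortalized line, and neither the size and duration of the force nor the oxygen level of the cultures is stated in the labels.

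JmjC demethylases remove methyl groups from histone lysines in a reaction that consumes molecular oxygen and 2-oxoglutarate at an iron centre and releases succinate and formaldehyde. The subfamilies differ in the lysine they act on: Kdm2 enzymes act on H3K36, Kdm3 enzymes on H3K9, Kdm4 enzymes on H3K9 and H3K36, Kdm5 enzymes on H3K4 and Kdm6 enzymes on H3K27. Kdm3a and Kdm4b are known in many cell types as transcriptional targets of the hypoxia-inducible factors (HIFs). Because the enzymes use oxygen as a substrate, their activity and their transcript level can move separately, and RNA sequencing measures the transcript level alone.

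The compressed library held 24296292 and the control library 25049919 counts. Levels are given as CPM, counts divided by a library size scaled with trimmed mean of M-values (TMM), and 1 count was worth 0.0412 CPM under compression and 0.0399 CPM in the control. Ratios are compressed over control, with an exact 95% binomial interval that covers counting error only. With 1 library per group there is no replicate check and no test, so the values compare these libraries and not the conditions. In bulk RNA, fewer cells that express a gene and less RNA per cell cannot be told apart. Of the lineage markers Runx2, Sp7, Alpl, Col1a1, Col1a2, Spp1, Ibsp and Bglap, 6 of 8 were above 1 CPM. Ibsp, which cementoblasts commonly express, was at 0 in both, and Bglap lay below 1 CPM. The summed level of the 8 markers was 13093 CPM under compression and 12770 CPM in the control, mostly from Col1a1 and Col1a2. Runx2, the osteoblast transcription factor, had 4416 counts against 5788, a ratio of 0.787 (0.757 to 0.819). Markers of macrophages summed to 7.78 and 7.46 CPM, of endothelium to 4.32 and 4.15 CPM, of epithelium to 1.94 and 1.84 CPM and of adipocytes to 0.247 and 0.160 CPM, with Ptprc, Adgre1 and Epcam at 0 in both libraries. Their part in the Kdm values was not tested.

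Calls of higher or lower required 3 things: a level of 1 CPM or more in either library, a ratio of 2 or more (0.5 or less for lower), and an interval without 1. Of the 10 members 9 passed the CPM minimum. Among them Kdm3a, Kdm4b, Kdm5b and Kdm6b were called higher, where 3.11% of all 14001 genes above the minimum were called higher. Kdm8 was called lower, where 1.01% of all genes were. With a limit of 1.5 in place of 2, 4 members were called higher, beside 7.34% of all genes, and 1 lower, beside 3.74%. Kdm2a and Kdm4a had intervals above 1 at ratios below the limit, Kdm2b and Kdm3b had intervals that included 1, and Kdm4c had no counts. In all, 6 members had an interval above 1, against 26.3% of all genes, and 1 had an interval below 1, against 28.6%. Since the members were chosen with these ratios in view, nothing is read from the difference between those shares.

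**Figure D1:**
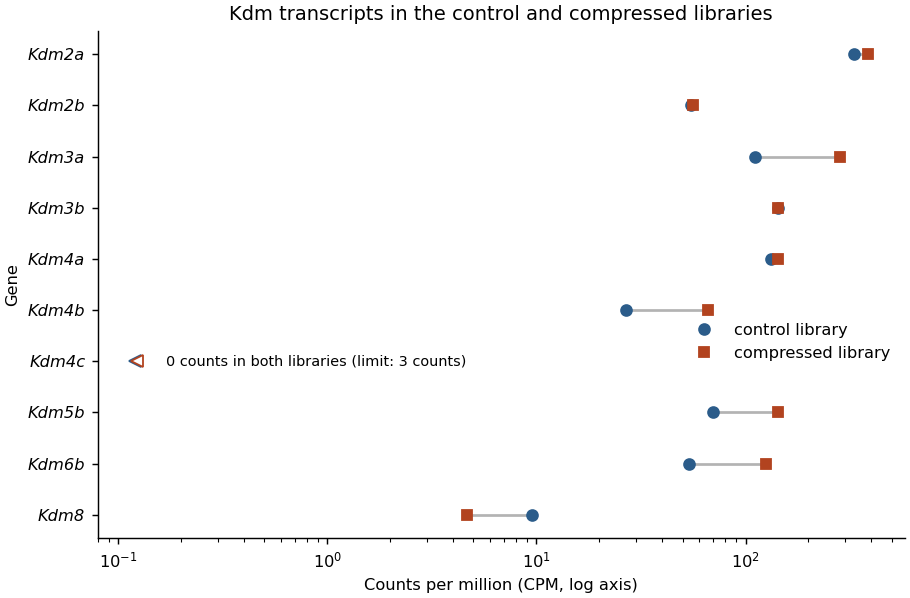
Level of each of the 10 Kdm genes in the control library (circles) and the compressed library (squares), in CPM on a log axis, with 1 library per group. Kdm3a, Kdm4b, Kdm5b and Kdm6b stand apart between the libraries, Kdm8 lies lower in the compressed library, and open triangles for Kdm4c mark the limit that 0 counts allow. Positions of different genes also reflect transcript length.

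The H3K9 demethylase pair, Kdm3a and Kdm3b, gave the widest contrast between close relatives. Kdm3a, which removes mono- and dimethyl marks from H3K9, had 6876 counts under compression and 2791 in the control, or 283 and 111 CPM. Its ratio of 2.54 (95% interval 2.43 to 2.66) was the highest of the members. Kdm3b, its paralog with the same substrate, had 3470 counts against 3590, or 142.9 against 143.2 CPM. The ratio of Kdm3b was 0.997 (0.952 to 1.05), so a difference was not detectable beyond counting error. Kdm3a lies on chromosome 6 at 71588970 to 71632990 and Kdm3b on chromosome 18 at 34777008 to 34839370 (GRCm38), and neither overlaps another gene of the RefSeq table.

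The share of a pair's counts that 1 paralog holds within a library needs no scaling between libraries. Kdm3a held 66.5% (65.5 to 67.4) of the Kdm3a and Kdm3b counts in the compressed library and 43.7% (42.5 to 44.97) in the control library. The order of counts within the pair thus differed, with more Kdm3a than Kdm3b counts under compression and fewer in the control. Counts of the pair are not a ratio of transcripts, since the genes differ in length. Between the libraries the Kdm3a to Kdm3b count ratio differed 2.55-fold. That is close to the TMM-scaled ratio of Kdm3a because the ratio of Kdm3b was near 1, so it is no separate check of the scaling.

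Among the Kdm4 genes, whose products remove trimethyl marks from H3K9 and H3K36, the members diverged in the same way. Kdm4b had 1614 counts under compression and 675 in the control, or 66.5 and 26.9 CPM, a ratio of 2.47 (2.25 to 2.70). Kdm4a had 3492 counts against 3330, or 143.8 against 132.9 CPM, and its ratio of 1.08 (1.03 to 1.14) lay just above 1. Kdm4b held 31.6% (30.3 to 32.9) of the counts of the Kdm4a and Kdm4b pair in the compressed library and 16.9% (15.7 to 18.05) in the control library. Kdm4a therefore gave most of the pair's counts in both libraries. Kdm4b lies on chromosome 17 at 56325970 to 56403774, and the lncRNA Gm32715 overlaps it in RefSeq. The strand setting of the counting is not given, so reads of such overlapping genes cannot be separated.

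Kdm4c, the third member of this subfamily, had 0 counts in both libraries. That allows up to 3 counts, or 0.124 CPM under compression and 0.120 CPM in the control, while Kdm4a had 3492 and 3330 counts. The gene spans chromosome 4 at 74242497 to 74405864, and few counts were listed around it. Between the nearest rows above 1 CPM on either side, C630043F03Rik and Tmem261, lie 3.07 megabases of chromosome 4, from 72203931 to 75277350. Of the 25 rows placed in that stretch 22 had 0 counts in both libraries, among them all 13 protein-coding genes, Kdm4c, Frmd3 and Rasef included. The other 3 rows were pseudogenes, with at most 7 counts. Rows at 0 are common, since 21227 of all 44792 rows had counts in the compressed library and 20945 in the control. Several of the 13 protein-coding genes carry only Gm numbers as symbols, and only rows matched to RefSeq could be placed. Tmem261, on the far side, had 309 counts against 271. This stretch and its genes were picked out after the Kdm4c counts were seen, and what underlies the absence of counts was not tested. The table does not tell a gene without transcripts from one whose reads were not counted, so the CPM limit holds only if reads of the gene were counted.

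Kdm5b, which removes methyl marks from H3K4, was the sole Kdm5 gene among the members. It had 3482 counts under compression and 1759 in the control, or 143.4 and 70.2 CPM. Its ratio of 2.04 (1.93 to 2.16) passed the limit of 2, with an interval that reached below it. The related Kdm5a had 5358 counts against 4272, with a ratio of 1.29 (1.24 to 1.35), and Kdm5c had 8522 against 8101, a ratio of 1.09 (1.05 to 1.12). All 3 Kdm5 intervals lay above 1, and the interval of Kdm5b did not overlap those of Kdm5a and Kdm5c. These intervals cover counting error only, and Kdm5b was chosen with its ratio known, so the separation is no test. Kdm5b held 29.0% (28.2 to 29.8) of the Kdm5b and Kdm5c counts under compression and 17.8% (17.1 to 18.6) in the control. Kdm5b lies on chromosome 1 at 134560178 to 134632878, and the overlapping Mgat4e had 0 counts in both libraries.

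Kdm6b, also called Jmjd3, removes di- and trimethyl marks from H3K27, the mark set by Polycomb repressive complex 2 (PRC2), and is known for its induction in macrophages. It had 3053 counts under compression and 1348 in the control, or 125.7 and 53.8 CPM, a ratio of 2.34 (2.19 to 2.49). Kdm6a, the X-linked paralog, had 2005 counts against 2151, a ratio of 0.962 (0.905 to 1.02). Kdm6b held 60.4% (59.0 to 61.7) of the pair's counts under compression and 38.5% (36.9 to 40.2) in the control. As with Kdm3a, the order of counts within the pair differed between the libraries. Kdm6b lies on chromosome 11 at 69398508 to 69420367, where RefSeq also places the lncRNA Gm51903.

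**Figure D2:**
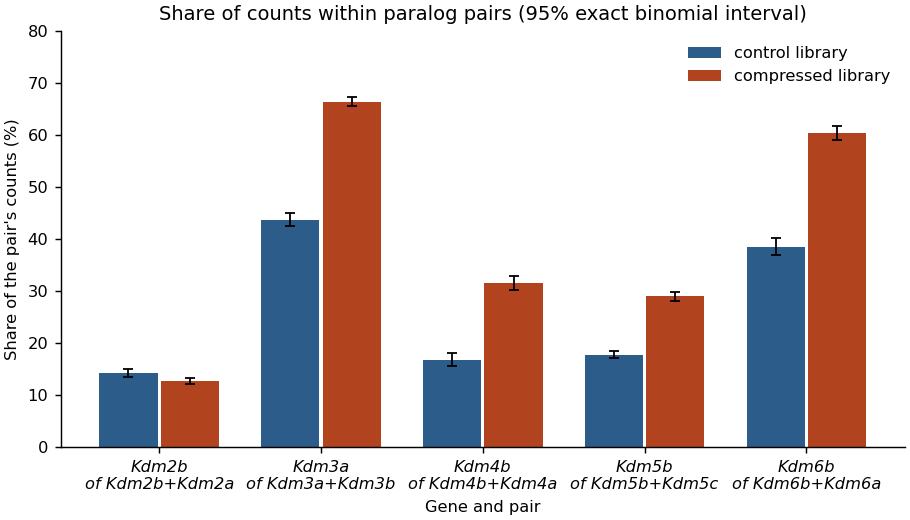
Share of the summed counts of 2 paralogs that the first named gene holds, in percent, in the control and compressed libraries. Bars are 1 library each and error bars are 95% exact binomial intervals for counting error. The shares of Kdm3a, Kdm4b, Kdm5b and Kdm6b were larger in the compressed library, and that of Kdm2b was slightly smaller, at 12.7% against 14.3%.

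The H3K36 demethylases Kdm2a and Kdm2b, which bind unmethylated CpG islands through a zinc finger, lay near a ratio of 1. Kdm2a had 9350 counts in the compressed library and 8237 in the control, or 385.0 and 328.7 CPM, a ratio of 1.17 (1.14 to 1.21). Kdm2b, which brings the variant Polycomb complex PRC1.1 to CpG islands, had 1363 counts against 1371, or 56.1 against 54.7 CPM. The ratio of Kdm2b was 1.03 (0.951 to 1.11), and a difference was not detectable beyond counting error. Within the pair, Kdm2b held 12.7% (12.1 to 13.4) of the counts under compression and 14.3% (13.6 to 14.985) in the control. The 9430078G10Rik gene, which overlaps Kdm2a, had 11 counts against 3, too few to move the Kdm2a ratio.

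Kdm8, also called Jmjd5, is a JmjC protein known as a hydroxylase of arginine residues, and its activity as a histone demethylase is debated. It was the 1 member whose interval lay below 1, with 113 counts against 240, or 4.65 against 9.58 CPM. Its level was 2.06 times lower (1.64 to 2.60) under compression. Kdm8 also had the fewest counts of the members detected, so its interval was the widest. It lies on chromosome 7 at 125444620 to 125463651 and overlaps no other gene of the RefSeq table.

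**Figure D3:**
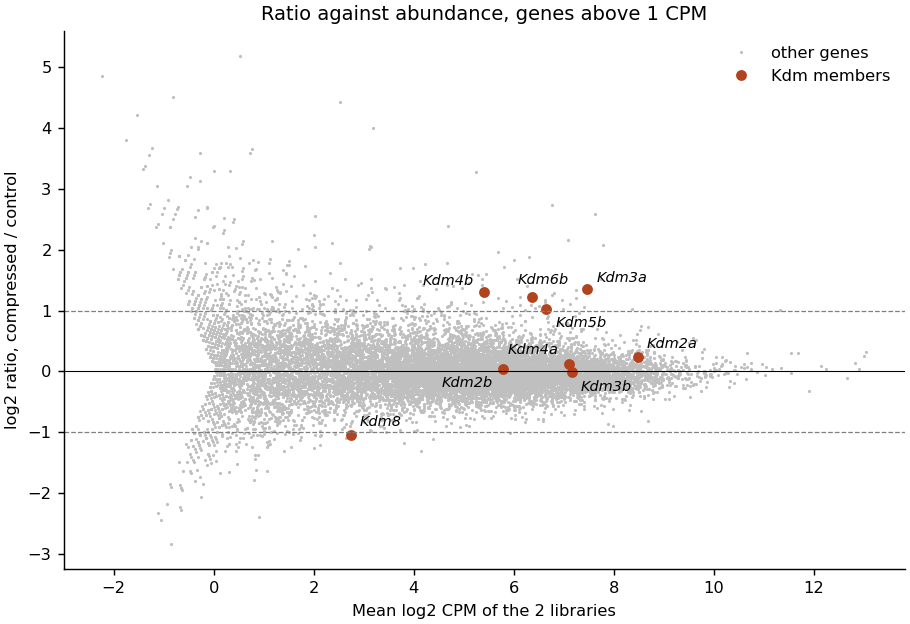
Log2 ratio of the compressed over the control library against the mean log2 CPM, with each gene above 1 CPM and with counts in both libraries as a grey point and the 9 detected Kdm members in colour. Dashed lines mark a ratio of 2 and of 0.5. Kdm3a, Kdm4b, Kdm5b and Kdm6b lie above the upper line at abundances where few genes do, and Kdm8 lies just below the lower line.

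Set among mRNAs of like abundance (mean log2 CPM within 0.5), the called members lay near the edge of the spread of ratios. That position follows from the call, since few such mRNAs pass a ratio of 2 or 0.5. Around Kdm3a, 9 of 1259 mRNAs were called higher. Of those 1259 mRNAs, 4 had a ratio at or above that of Kdm3a. For Kdm4b the number was 10 of 2235, for Kdm6b 8 of 2135 and for Kdm5b 15 of 1939. For Kdm8, 1 of 932 mRNAs of like abundance had a ratio at or below its own. For the uncalled members with counts, 52 of 565 mRNAs lay at or above Kdm2a, which was thus also toward the upper side. The numbers were 408 of 1586 for Kdm4a, 694 of 1534 for Kdm3b and 844 of 2285 for Kdm2b. These positions describe the 2 libraries and are no test.

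The 5 mRNAs nearest to Kdm3a in log2 ratio within that abundance window were Gys1, Kif21b, Arhgap29, Slc16a3 and Pfkp. Gys1, the muscle-type glycogen synthase, had 5841 counts against 2375, and its log2 ratio of 1.34 differed from that of Kdm3a (1.35) by less than 0.01. The kinesin Kif21b had a log2 ratio of 1.20 and Arhgap29, a GTPase-activating protein, 1.52. Slc16a3, a lactate transporter, and Pfkp, a phosphofructokinase, had 1.11 and 1.05. Likeness over 2 libraries rests on a single ratio per gene.

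Promoter sequence is shown for 4 members, since those called include some of opposite direction and the letters can be set beside the counts. Each line gives the 250 bases before an annotated start, 5′ to 3′ on the gene's strand, from the RefSeq promoter table (GRCm38.p6). Capitals mark ACGTG or GCGTG on either strand (CACGT or CACGC as printed), the core letters of the hypoxia response element to which HIFs bind. Matches may overlap, so CACGTG counts as a match on both strands.
Kdm3a (called higher), chr6:71632918-71633167, minus strand: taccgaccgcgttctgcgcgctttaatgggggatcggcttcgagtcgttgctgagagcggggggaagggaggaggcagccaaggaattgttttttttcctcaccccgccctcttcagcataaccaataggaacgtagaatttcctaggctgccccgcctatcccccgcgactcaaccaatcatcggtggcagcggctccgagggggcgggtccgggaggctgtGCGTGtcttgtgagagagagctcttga
Kdm5b (called higher), chr1:134559928-134560177, plus strand: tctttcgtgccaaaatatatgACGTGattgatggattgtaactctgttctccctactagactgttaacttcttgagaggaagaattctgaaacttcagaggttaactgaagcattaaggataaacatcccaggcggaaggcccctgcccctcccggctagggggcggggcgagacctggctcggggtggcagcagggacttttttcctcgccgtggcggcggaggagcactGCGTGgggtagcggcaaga
Kdm8 (called lower), chr7:125444370-125444619, plus strand: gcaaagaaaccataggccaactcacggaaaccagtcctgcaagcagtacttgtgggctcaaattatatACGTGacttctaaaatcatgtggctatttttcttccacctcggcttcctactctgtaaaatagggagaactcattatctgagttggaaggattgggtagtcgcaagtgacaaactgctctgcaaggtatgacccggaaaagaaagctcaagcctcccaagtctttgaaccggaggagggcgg
Kdm4c (no counts), chr4:74251629-74251878, plus strand: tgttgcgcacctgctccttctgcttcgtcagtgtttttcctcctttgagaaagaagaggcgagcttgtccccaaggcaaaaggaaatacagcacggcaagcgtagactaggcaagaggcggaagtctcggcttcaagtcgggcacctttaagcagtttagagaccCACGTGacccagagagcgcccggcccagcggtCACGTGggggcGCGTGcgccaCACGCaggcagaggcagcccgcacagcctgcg

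These 4 windows were picked from those with a match, so that each shows the core letters follows from the choice. Kdm3a had 1 match, which began 27 bases before the start and lies within the annotated span of the gene. Kdm5b had 2 matches, 229 and 19 bases before the start, and Kdm8 had 1, at 182 bases. Kdm4c, with 0 counts, had 6 matches in 4 separate stretches of this window. The table held 12 windows for 6 of the 10 members (Kdm2b, Kdm3a, Kdm4a, Kdm4c, Kdm5b and Kdm8), and 8 of the 12 had a match. Of all 32851 windows of that length 38.6% had one. The matching member windows were the 4 printed and those of Kdm2b, a gene with a ratio of 1.03 (0.951 to 1.11). The Kdm2b windows that begin at 122900351 and 122900368 overlap and hold the same matches, so the shares are not compared. The other Kdm3a windows, the Kdm4a window and the other Kdm4c window had no match. A match in these letters is not a binding site, and several windows belong to 1 gene.

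Other JmjC proteins spread in both directions. Of 20 listed genes 16 were above 1 CPM, 2 were called higher (3.11% of all genes) and 0 lower (1.01%). An interval above 1 was found for 7 (26.3% of all genes) and below 1 for 5 (28.6%). Among the 9 Kdm members above the minimum the numbers were 6 and 1. The median log2 ratio of the 16 was 0.01, beside -0.01 over all genes above the minimum and 0.23 over the 9 Kdm members. The members were chosen with their ratios known and these relatives were left out, so nothing is read from the contrast. Kdm7a, which acts on H3K9 and H3K27 and was not among the members, had 2196 counts against 1083, a ratio of 2.09 (1.94 to 2.25). Hr, the hairless corepressor of the Kdm3 branch, had 137 counts against 63, a ratio of 2.24 (1.65 to 3.07). Riox1, a ribosomal oxygenase listed under its older symbol, had 191 against 330 (0.597, 0.497 to 0.716), and Jmjd4, a hydroxylase of a translation termination factor, had 554 against 901 (0.634, 0.570 to 0.706).

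**Figure D4:**
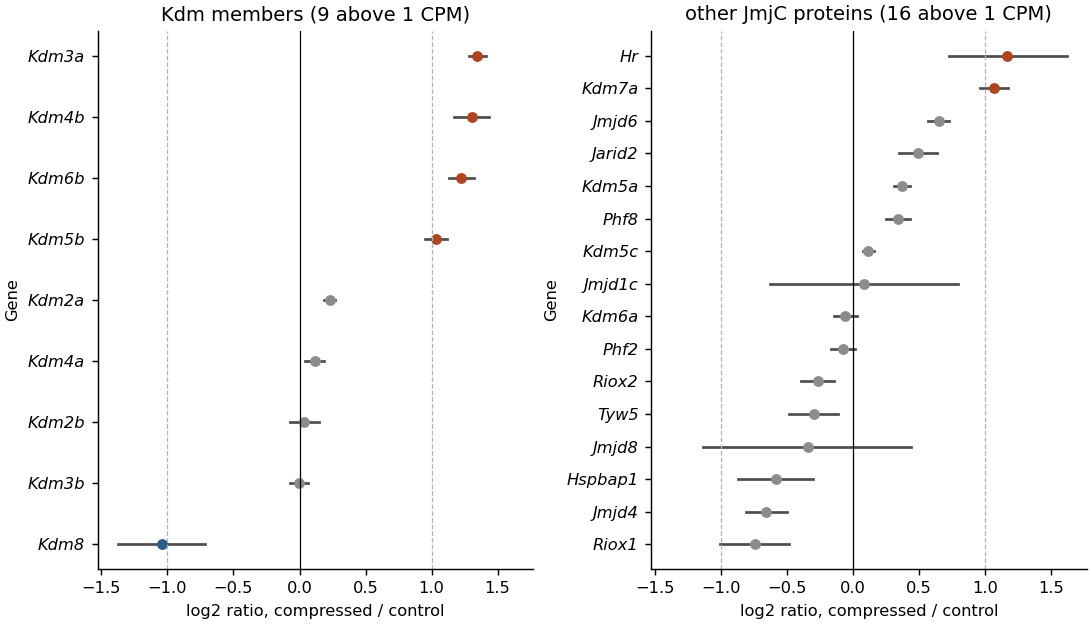
Log2 ratio of compressed over control with its 95% counting interval for the 9 Kdm members (left) and 16 other JmjC proteins (right) above 1 CPM. Colour marks genes called higher (red) or lower (blue), and dashed lines mark a ratio of 2 and of 0.5. Kdm3a, Kdm4b, Kdm6b, Kdm5b, Hr and Kdm7a lie beyond the upper line, and Kdm8 lies beyond the lower line.

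Demethylases that use flavin in place of iron and 2-oxoglutarate lay near 1. Kdm1a, which acts on H3K4 with the CoREST complex, had 3323 counts against 3098, a ratio of 1.11 (1.05 to 1.16). Its relative Kdm1b had 486 against 508, a ratio of 0.987 (0.870 to 1.12). Of the CoREST scaffold genes, Rcor2 had 788 counts against 393 and was called higher at 2.07 (1.83 to 2.34). Rcor1 had a ratio of 1.24 (1.18 to 1.31) and Rcor3 of 0.841 (0.781 to 0.905). The median log2 ratio of these 5 genes was 0.15.

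Among 28 other 2-oxoglutarate oxygenases above 1 CPM, which share the cosubstrates of the Kdm enzymes, 3 were called higher and 0 lower, beside 3.11% and 1.01% of all genes. Tet2, which oxidises 5-methylcytosine in DNA, had 3587 counts against 1650, a ratio of 2.24 (2.12 to 2.38). Egln1, the prolyl hydroxylase that marks HIF alpha subunits for degradation, had 3554 against 1656, a ratio of 2.21 (2.09 to 2.35). The third was Plod2, a collagen lysyl hydroxylase named after its values were seen, at 2.05 (1.98 to 2.11). The lowest were Hif1an, the asparaginyl hydroxylase of HIF, at 0.820 (0.771 to 0.872) and the tRNA-modifying Alkbh8 at 0.875 (0.793 to 0.966). The median log2 ratio of the list was 0.14, with 14 intervals above 1 (26.3% of all genes) and 5 below 1 (28.6%).

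The methyltransferases that set the marks removed by Kdm enzymes had no member called in either direction. With 3.11% of all genes called higher and 1.01% lower, lists of this size would hold few calls or none at the background share. For H3K9, 8 enzymes were above 1 CPM, with a median log2 ratio of -0.18. Of these, 6 had an interval below 1 (28.6% of all genes) and 1 above (26.3%). Intervals exclude 1 more readily for well-counted genes, so shares over all genes are a loose reference for any list. In the H3K4 list 6 of 13 intervals lay below 1 and 3 above, in the H3K27 list 4 and 5 of 10, and in the H3K36 list 2 and 1 of 7. Mecom had a ratio of 0.745 (0.540 to 1.02) and Setdb2 of 0.839 (0.747 to 0.942), while Ehmt1 had 0.925 (0.873 to 0.980) and Ehmt2, its partner in dimethylation, 1.09 (1.06 to 1.13). Of the 4 detected members that act on H3K9, Kdm3b (0.997) and Kdm4a (1.08) lay within the range of these writers, and Kdm3a and Kdm4b lay above it. Since Kdm3a and Kdm4b were chosen with their high ratios known, their place above the writers is a description only.

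Writers of the other marks also stayed within 2-fold. For H3K4, 13 methyltransferases and subunits had a median log2 ratio of -0.07, from Wdr5 at a ratio of 0.825 (0.776 to 0.877) and Setd7 at 0.876 to Kmt2a at 1.13 and Kmt2e at 1.23 (1.18 to 1.28). For H3K27, the 10 PRC2 genes had a median of 0.04, with Phf19 at 0.812 (0.737 to 0.895), Mtf2 at 0.936, Phf1 at 1.27 and Ezh1 at 1.60 (1.495 to 1.71). Ezh1, a catalytic subunit of PRC2, had 2302 counts against 1488. For H3K36, 7 methyltransferases had a median log2 ratio of 0.00, from Nsd1 at 0.753 (0.722 to 0.785) and Ash1l at 0.876 to Nsd3 at 1.096 and Setmar at 1.11 (0.825 to 1.502).

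The partners of Kdm2b in PRC1.1 had 0 of 9 genes called, beside 3.11% higher and 1.01% lower of all genes, and a median log2 ratio of -0.03. Usp7, a deubiquitinase, had a ratio of 0.874 (0.849 to 0.900) and Rybp 0.876, while Ring1, a ubiquitin ligase subunit, had 1.41 (1.23 to 1.63) and Bcorl1 1.18. Enzymes of 2-oxoglutarate and 2-hydroxyglutarate metabolism, which set the level of the Kdm cosubstrate and of its competitor, had 0 of 15 called, against the same background, and a median of -0.01. Idh3a, a subunit of an isocitrate dehydrogenase, had a ratio of 0.812 (0.770 to 0.856). Got1 had a ratio of 1.17 and Adhfe1, with 87 counts against 55, of 1.63 (1.15 to 2.33).

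Reference genes of the hypoxia response were higher in the same libraries. Of 13 above 1 CPM, 9 were called higher and 0 lower, beside 3.11% and 1.01% of all genes. All 13 had an interval above 1, against 26.3% of all genes, and the median log2 ratio was 1.59. The remaining listed gene, Adm, named after its values were seen, had 1 count against 0. Car9 had 36 counts against 2, a ratio of 18.6 (4.78 to 159). Ankrd37 had 147 against 12, a ratio of 12.6 (7.02 to 25.02). The lowest were Ldha at 1.25 (1.23 to 1.28) and Pfkfb3 at 1.18 (1.11 to 1.25). Kdm3a, at a log2 ratio of 1.35, Kdm4b at 1.30, Kdm6b at 1.22 and Kdm5b at 1.03 all lay below the list median of 1.59. They lay inside the range of that list, from 0.24 to 4.22. That range is wide, and Car9 at its top rests on 2 counts in the control, so a place inside it says little. The list was known from earlier results of these libraries to be high, so it is no independent evidence.

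**Figure D5:**
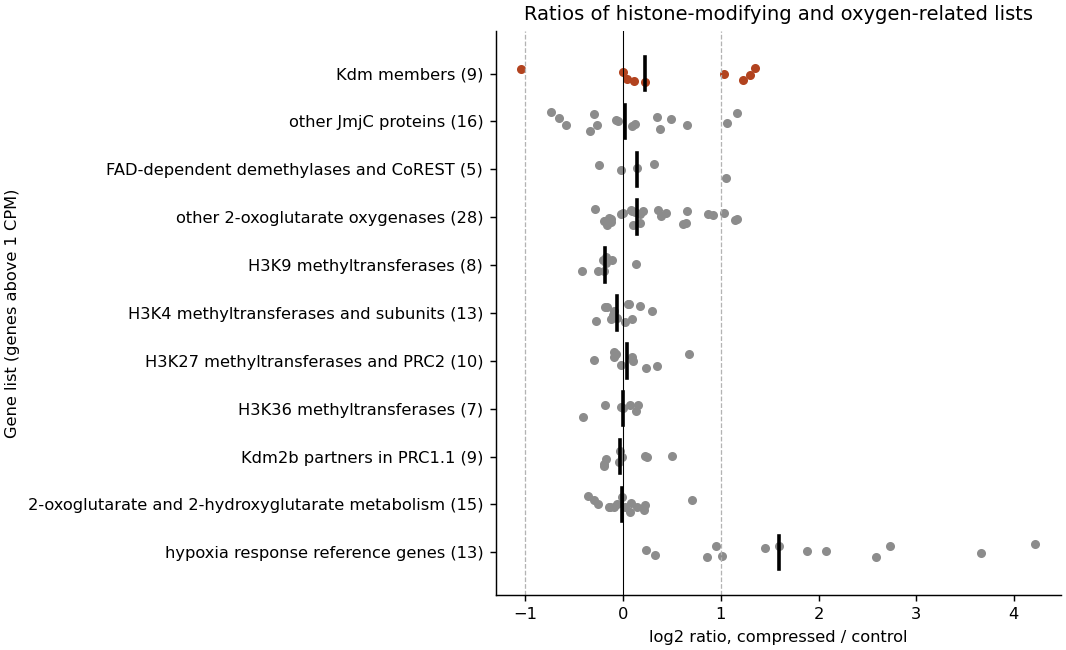
Log2 ratio of compressed over control for each gene above 1 CPM in the Kdm members and 10 gene lists. Points are genes, spread vertically at random within a list, black bars are list medians, numbers in brackets are genes plotted, and dashed lines mark a ratio of 2 and of 0.5. The 5 lists of histone methyltransferases and PRC1.1 partners lie between the dashed lines. Beyond the upper line lie Kdm3a, Kdm4b, Kdm5b and Kdm6b, and hypoxia genes up to 4.22. So do Hr and Kdm7a (other JmjC proteins), Rcor2 (CoREST), and Tet2, Egln1 and Plod2 (other 2-oxoglutarate oxygenases). Of the members, Kdm8 lies beyond the lower line.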

How the data were processed

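The authors deposited whole-number read counts per gene for 2 libraries, with no normalization. Per the submitters' processing notes, HISAT2 and the mouse build GRCm38 were used. How reads were counted, on which annotation and strand, and what was done with multiply aligned reads is not given in the sources used.

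TMM factors from edgeR 4.0.16 (R 4.3.3) gave effective library sizes, from which CPM and ratios were computed with no prior count. Where 1 library had 0 counts, 3 counts took its place. Exact conditional binomial intervals (Clopper-Pearson, 95%) came from scipy 1.17.1. Reads are not independent molecules, so intervals and limits cover counting error only. Calls needed 1 CPM in either library, a ratio past 2 or 0.5, and an interval without 1. No p-value was computed, since 1 library per group leaves no residual degrees of freedom. The calling rule was tested on simulated counts with counting error alone, which leaves its behaviour under variation between cultures untested.

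The members and lists were chosen with earlier results of these data known. Named genes were the 10 members, the pair partners, the 2 highest and 2 lowest ratios of each list, and the 5 mRNAs nearest to Kdm3a. One gene that this rule selects is not reported here. Other genes are said to have been chosen after their values were seen, apart from markers and Kdm relatives. A RefSeq table (GRCm38.p6) matched 39636 of 44792 symbols (88.5%), gave positions counted from 1 and resolved older symbols. Alternatives were other scalings, CPM minimums, fold limits, prior counts and intervals widened for variation between cultures.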

Additional observations from a re-analysis of the deposited data

How the results depend on the processing

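Alternatives were scaling by total counts, by DESeq2 1.42.0 size factors or by the upper quartile, and subtracting a loess trend on abundance. Others dropped the CPM minimum or raised it to 5, lowered the fold limit to 1.5, or widened the intervals. The widening assumed a coefficient of variation of 0.1 or 0.2 between cultures. Each left 4 members called higher and 1 called lower. The fold and CPM limits could not change the calls. No member had a ratio between the limits of 1.5 and 2 in either direction, and each called member passed 5 CPM in either library. Kdm8 did so in the control alone, with 9.58 CPM against 4.65 CPM under compression. The widening was too small to bring a well-counted ratio of 2 to 1, so it does not measure variation between cultures. The number of members with an interval above 1 was between 4 and 6 over its 8 alternatives and stood at 4 with the widened intervals, where Kdm2a and Kdm4a no longer had one. Of 54 log2 ratios of members under another scaling or prior count, 52 kept their sign, and the exceptions were both of Kdm3b, which ranged from -0.02 to 0.03. Kdm5b, nearest to the fold limit, ranged from 1.02 to 1.06 and Kdm8 from -1.08 to -1.01. No replicate could be left out, and no paired analysis was possible because each group holds 1 library. Depth limits Kdm8, with 113 and 240 counts, and Kdm4c, for which 0 counts bound the level and give no ratio.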
